A study of Mus musculus with 11 samples.

Results

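Cell adhesion, Hippo signalling and axon guidance were represented by 4 genes, Ctnna1, Dchs1, Amot and Slit2, out of 558 genes with a listed variant in exomes of mouse pancreatic ductal adenocarcinoma. The genes were chosen by having records in the variant table, so their presence there, the tumours that held them and their read numbers are given as a description. They held 6 of 739 records, all of them missense changes, in 4 of 11 tumours. Tamoxifen was given orally to adult mice of 8 to 10 weeks, 5 mg daily over 3 days, and the mice were kept until they were moribund, so tumours were not collected at a set age. All mice carried engineered alleles, among them the fluorescent reporter Rosa26LSL-tdTomato/LSL-tdTomato, and Ptf1aCreER, which switches them on in acinar cells. The 7 KT tumours had these alleles alone, and the 4 KPT tumours also had Trp53fl/fl, floxed alleles of the p53 tumour suppressor gene. Each tumour was 1 DNA sample. The proportion of cells other than tumour cells, the strain background and the sex of the mice were not given in the sources used here. No normal sample was named either, so inherited variants and variants acquired in a tumour could not be told apart.

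Epithelial cells hold on to each other through cadherins, whose inner ends bind catenins that connect them to actin. Contact between cells also feeds the Hippo pathway, in which the kinases Mst and Lats keep the growth-promoting co-activators Yap and Taz out of the nucleus. Slit proteins are secreted ligands of Robo receptors that steer growing axons and also act on epithelial and endothelial cells, and changes in this axon guidance pathway are known from human pancreatic cancer.

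The read numbers fell into 2 kinds by tumour. In KPT tumours 3 and 4, Dchs1 and Ctnna1 each had a single record carried by a minority of reads, 3 of 14 and 5 of 21. In KT tumours 1 and 5, Amot and Slit2 had records in which every read carried the variant, 11 of 11 for Amot and 46 of 46 over the 3 Slit2 sites. The other 7 tumours had 0 records in these genes, which says nothing about the reads there, because only listed variants are in the table. Of the KT tumours 2 of 7 and of the KPT tumours 2 of 4 held a record, and since the genes were chosen for these records no test between genotypes was made. These were the tumours with the most records of their genotype, 225 and 133 in KT and 72 and 63 in KPT. For reference, 2.49% of 21900 coding genes had a record in any tumour, 1.74% in a KT tumour and 0.781% in a KPT tumour. These are shares of genes and not of tumours.

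**Figure D1:**
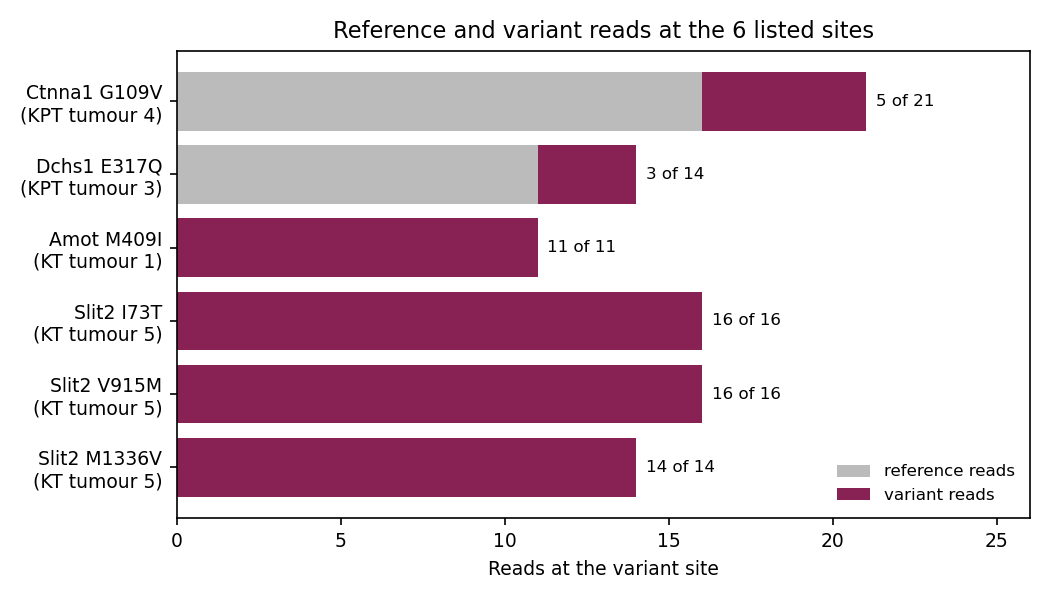
Reads at each of the 6 sites (horizontal axis, number of reads), with reference reads in grey and variant reads in purple, 1 bar per record. Ctnna1 and Dchs1 have mostly reference reads (16 and 11), while the Amot and Slit2 bars hold variant reads alone.

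Depth limits how precisely these shares are known. Depth at the 6 sites ran from 11 to 21 reads, 92 reads in all, within a range of 10 to 198 over the whole table. The 95% Wilson intervals given here cover counting error only, since reads are not shown to be independent molecules. The median depth of a tumour's records was 32 reads in KT tumour 1, 21 in KT tumour 5, 11 in KPT tumour 3 and 13 in KPT tumour 4. At 5 of the 6 sites depth was under 20 reads, and Ctnna1 was the exception.

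Ctnna1 (ENSMUSG00000037815) encodes alpha-catenin, which binds beta-catenin at the cadherin complex with its N-terminal domain and actin with its C-terminal one. In KPT tumour 4 it carried G109V at chr18:35174277 of build GRCm38, in exon 4 of 18 and at coding base 326. Residues are counted from 1 at the first residue of the protein. G109 belongs to the N-terminal part of the protein that takes part in beta-catenin binding and dimer formation. The variant was on 5 of 21 reads, or 23.8% (10.6% to 45.1%), and 16 reads had the reference base.

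The listed allele fraction of Ctnna1 G109V, an estimate deposited beside the reads, was 27.7%, or 3.89 points above the share of reads. The table starts at a listed fraction of 25%, so the record lay near its lower end, and the share of reads itself was below 25%. Of the 72 records of KPT tumour 4, 51 had a higher share of variant reads and 20 a lower one. The record was also deeper than most, with 16 of the 72 having more reads. It was the single record of that tumour on chromosome 18. No other Ctnna1 record was listed, so there was no replicate of the change.

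G109V was a G-to-T change, which counts as C-to-A when the strands are folded. In KPT tumour 4, 39 of 70 substitutions were of this class (55.7%) and 29 of 72 records had at most 3 variant reads (40.3%). The part of either in the Ctnna1 record was not tested. Its 5 variant reads were split 3 and 2 between the read-pair orientations F1R2 and F2R1, and its reference reads 8 and 8. Exchange of glycine for valine scores -3 in BLOSUM62, a matrix in which negative values mark exchanges seen less often in related proteins than expected from their frequencies. A score of -3 or below was found in 56 of the 702 missense records (7.98%), and Ctnna1 was the lowest of the 6.

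Dchs1 (ENSMUSG00000036862) encodes a very large cadherin, the mammalian relative of Drosophila Dachsous, which binds the cadherin Fat4 on neighbouring cells and in Drosophila acts upstream of Hippo. KPT tumour 3 carried E317Q at chr7:105772263, in exon 2 of 21, the result of a change from codon GAA to CAA on the minus strand gene. The residue lies in the N-terminal stretch of extracellular cadherin repeats. The variant was on 3 of 14 reads, 21.4% (7.57% to 47.6%), with 11 reference reads and a listed fraction of 26.5%. It was the record with the fewest variant reads among the 6, and its interval overlapped that of Ctnna1 almost entirely.

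Most records of KPT tumour 3 had as little support as Dchs1 E317Q. Its 63 records had a median share of 20%, 25 of them were higher and 37 lower than Dchs1, and 5 were deeper. At most 3 variant reads supported 52 of the 63 (82.5%), Dchs1 among them, and 41 had a share of variant reads under 25%. The part of low read numbers in the Dchs1 record was not tested. Its class, C-to-G, was found in 3 of the 62 substitutions of that tumour (4.84%), where 51 were C-to-A. Glutamate to glutamine scores 2 in BLOSUM62. The authors marked Dchs1 as a tumour suppressor gene, as they did 15 records in 10 genes, and the other 3 genes had no such mark. The mark was left empty for 108 records in 3 tumours.

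The other records of KPT tumour 3 on chromosome 7 were far from Dchs1. The nearest before it was L356V of the transcription factor gene Npas1, 89.3 Mb away and on 25 of 25 reads. The nearest after it was P76T in Spn, which encodes the leukocyte sialoglycoprotein CD43, 21.4 Mb away and on 2 of 11 reads. Dchs1 was thus close to the Spn record in its share of reads and far from the Npas1 record. Neither Dchs1 nor Ctnna1 had a record of another gene within 2 Mb.

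Amot (ENSMUSG00000041688) encodes angiomotin, a scaffold protein of cell junctions that binds Yap and can hold it in the cytoplasm. KT tumour 1 carried M409I at chrX:145480107, in exon 2 of 11, a change of the last base of codon ATG to ATC. The variant was on 11 of 11 reads, which gives a lower limit of 74.1% for the share, and the listed fraction was 91.2%. In human the long isoform of angiomotin has an N-terminal part with the motifs that bind Yap, and a shorter isoform starts at an internal methionine. Whether M409 corresponds to that start in the mouse was not examined, because no protein sequence was used here. The transcript used for annotation began at the start codon, with 0 bases before it.

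The Amot reads were uneven in orientation, with 1 variant read in F1R2 and 10 in F2R1 orientation. The F1R2 share was 9.09% (1.62% to 37.7%). Among 408 records with at least 11 oriented variant reads, 4 were as uneven as this (0.98%), Amot among them. The limit of 11 was Amot's own number of reads, and records with more reads reach such a split less easily. The 0.98% is therefore no measure of how unusual Amot was, and the unevenness was not tested. Amot was also among the shallow records of its tumour, with 211 of 225 deeper. The exchange of methionine for isoleucine scores 1, a value reached or exceeded by 262 of the 702 missense records (37.3%).

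On the X chromosome, Amot lay among records of the same kind. KT tumour 1 had 13 records there in 11 genes, of which 11 records had over 80% variant reads. At those 11 records, 1 of 324 reads was a reference read. After Amot came 5 records in 4 genes, Apex2, Tro, Phf8 and Huwe1, all at 100%, and the nearest was Apex2 M433V, a change in a DNA repair endonuclease 5.09 Mb away with 18 of 18 reads. No record lay in the 71.2 Mb before it. The 2 records with a minority of variant reads on this chromosome were the truncating ones, the frameshift in the histone methyltransferase gene Suv39h1 with 6 of 21 reads and R790* in the Integrator-related gene Ints6l with 4 of 11. On the other chromosomes of this tumour 9 of 212 records exceeded 80%, and 8 of these were on chromosome 4, which had 11 records. The sex of the mouse, and so its number of X chromosomes, was not given. Shares on the X chromosome, that of Amot included, may therefore not be comparable with those on other chromosomes or at Slit2.

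Slit2 (ENSMUSG00000031558) was the gene with more than 1 record, all in KT tumour 5. Its product is built from leucine-rich repeats at the N-terminus, followed by EGF-like repeats, a laminin G domain and a C-terminal cystine knot, and it is cut among the EGF-like repeats into an N-terminal fragment that binds Robo receptors and a C-terminal fragment. I73T lay at chr5:47987877 in exon 2 of 39, codon ATA to ACA, in the region of the first leucine-rich repeats. V915M lay at chr5:48256762 in exon 28, codon GTG to ATG, in the N-terminal fragment. M1336V lay at chr5:48302385 in exon 37, codon ATG to GTG, in the C-terminal fragment.

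Each Slit2 variant was on every read, 16 of 16, 16 of 16 and 14 of 14. The lower limits of the shares were 80.6%, 80.6% and 78.5%, and for the 46 reads as a sum 92.3%. The listed fractions were 94.5%, 94.7% and 93.7% and each lay within the interval of its share of reads. The listed genotype was nevertheless the heterozygous 0/1 at all 3 sites, as it was for Amot. The whole table held 69 records without a reference read, and all 69 were listed as heterozygous. Thus the genotype field did not separate records with and without reference reads.

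The 3 Slit2 sites covered nearly the whole gene. They were 269 kb and 45.6 kb apart, together 96.3% of the span of a gene of 326 kb, and 2.24% of coding genes were longer. The BLOSUM62 scores were -1, 1 and 1. All 3 were transitions (T-to-C, C-to-T and T-to-C), unlike the changes in Ctnna1, Dchs1 and Amot, which were transversions. Of the variant reads at I73T, 12 were in F1R2 and 2 in F2R1 orientation, against 6 and 10 at V915M and 5 and 8 at M1336V.

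Of 572 pairs of a tumour and a gene, 472 had 1 record, 66 had 2 and 34 had at least 3 (5.94%). Among the 98 pairs of KT tumour 5, 8 had at least 3. On chromosome 5 these were Akap9 with 7 records, Pclo with 3 and Slit2 with 3. Akap9 encodes a kinase anchoring protein and Pclo a scaffold of the presynaptic zone.

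**Figure D2:**
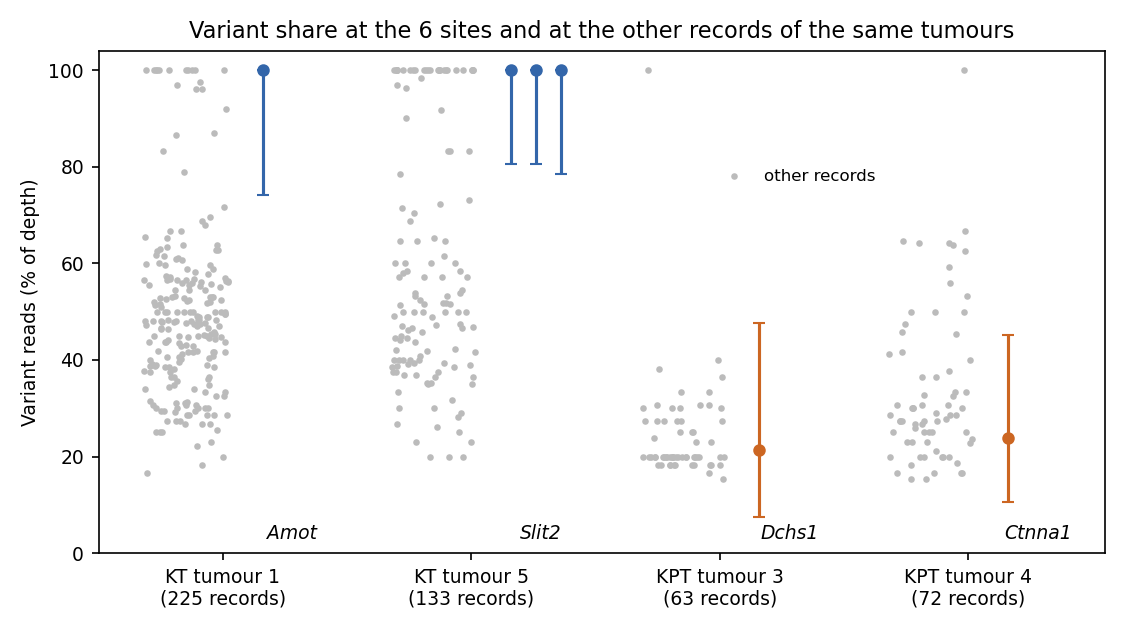
Variant reads in percent of depth (vertical axis) for the 6 records of the 4 genes (coloured points, bars for 95% Wilson intervals, KT blue and KPT orange) beside all other records of the same tumours (grey, 1 point per record, spread sideways for visibility). Amot and Slit2 lie at 100%, above the medians of 48% and 51.7% of their tumours, and Dchs1 and Ctnna1 lie at 21.4% and 23.8%, near the medians of 20% and 28.6%.

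Slit2 stood at the end of a long stretch of chromosome 5. KT tumour 5 had 42 records on this chromosome in 29 genes, from position 3968775 to 121572722. Before Slit2 there were 31 records of other genes, and 30 of them had over 80% variant reads, the lowest at 91.7%. The exception was P40H in Armc10, with 3 of 10 reads. After Slit2 there were 8 records, none above 80%, and their shares ran from 33.3% to 51.9% with a median of 40.8%. The shares on both sides of Slit2 thus did not overlap apart from Armc10, and any limit between 51.9% and 91.7% gives the same division. The limit of 80% was set with these values known, and the division was not tested.

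Slit2 M1336V was the last of the records above 80% on that chromosome. The nearest record of another gene before Slit2 was V784A in Ncapg, a condensin subunit gene, 2.29 Mb before I73T and on 41 of 41 reads. The nearest after it was R399K in Pi4k2b, a phosphatidylinositol kinase gene at position 52762451, 4.46 Mb after M1336V and on 15 of 36 reads. No record lay in those 4.46 Mb, so the change from 100% to a minority of reads is placed no closer than that. On the other chromosomes of KT tumour 5, 4 of 91 records exceeded 80%. All 4 of them were on chromosome 4, where they were the only records of this tumour.

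**Figure D3:**
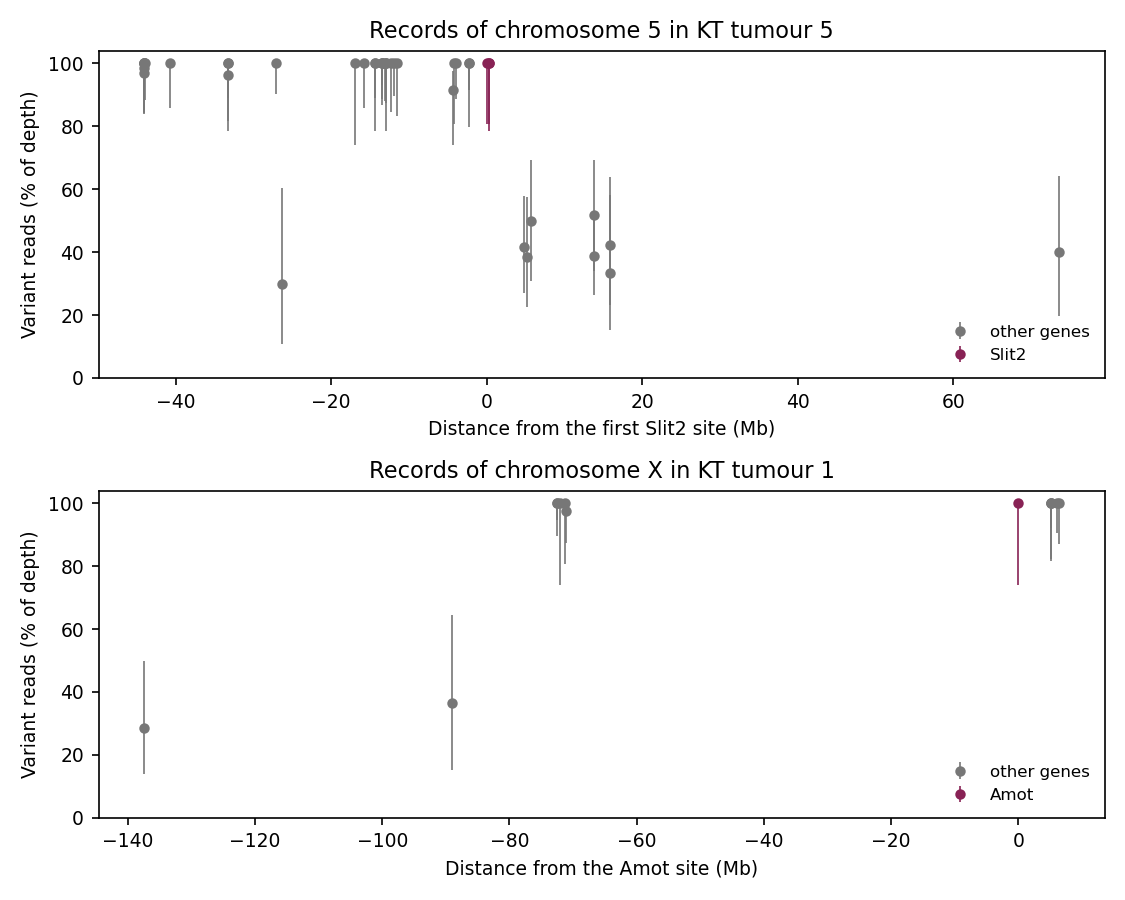
Variant reads in percent of depth with 95% Wilson intervals (vertical axes) against the distance in Mb from the first Slit2 site on chromosome 5 of KT tumour 5 (upper panel) and from the Amot site on the X chromosome of KT tumour 1 (lower panel). Slit2 sites (upper panel) and the Amot site (lower panel) are in purple and other genes in grey. Shares drop from 100% at Slit2 to 41.7% at Pi4k2b, the next record, while the 5 records after Amot stay at 100%.

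The genes most like each of the 4 were sought among those with records in exactly the same tumours and in the same number, ordered by the difference in mean listed allele fraction over those records. For Slit2 there were 3 such genes. Pclo, also on chromosome 5, had a mean fraction of 94.4% against 94.3%, whereas Gon4l and Abca4 on chromosome 3 had 51.0% and 46.0%. For Amot, the closest of 120 genes was Zfp92, also on the X chromosome, at the same 91.2% and the same 11 of 11 reads, followed by Olfr267 and Col27a1 on chromosome 4.

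For Ctnna1 and Dchs1, the 3 closest genes each lay on other chromosomes, as they had to for Ctnna1, the single record of KPT tumour 4 on its chromosome. The closest of 54 genes to Ctnna1 was Ahi1, with the same listed fraction of 27.7% and 5 of 18 variant reads, followed by Cda and Clec14a at 27.3%. The closest of 60 to Dchs1 were Fkbp5 and Stxbp4, both at 26.6% with 3 of 13 and 5 of 21 reads, and Dclre1a at 26.3%. Each comparison rests on 1 tumour, so it describes likeness of reads and nothing more.

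The wider pathways were described by 7 lists with 183 genes, drawn up with earlier results of these data known. Of these genes 8 had a record (4.37%), the 4 genes included, against 2.49% of all coding genes, and without them 4 of 179 (2.23%). List genes were longer than other genes, with a median span of 71.5 kb against 17.1 kb for all coding genes, and the part of length in these shares was not tested. With at least 5 variant reads 6 of the 183 list genes were left, among them Ctnna1, Amot and Slit2, where 1.86% of coding genes had such a record. At a depth of at least 20 reads 3 were left, among them Ctnna1, where the share was 1.46%. The genes named were chosen for having records, so these counts are no measure of an excess over coding genes.

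In the Hippo list Dchs1 and Amot were the genes with a record, 2 of 42 (4.76%, against 2.49% of all coding genes), and without them 0 of 40. The kinases Stk3, Stk4, Lats1 and Lats2, the co-activators Yap1 and Wwtr1, the Tead factors and the cadherin Fat4 had none. In the Slit-Robo list Slit2 was 1 of 10, and the other 9, with the receptors Robo1 to Robo4 among them, had 0 records. The netrin, ephrin-Eph and integrin lists, with 14, 22 and 30 genes, had 0. The integrin list did not include the leukocyte integrin genes Itgad and Itgax or the related gene Itgbl1, which had 4, 2 and 1 records. With so few genes per list, and with variants under a listed fraction of 25% outside the table, 0 does not show that a pathway carried no variant.

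The cadherin-catenin list had 4 of 40 genes with a record (10%, against 2.49% of all coding genes), adding Celsr1 and Nectin1 to Ctnna1 and Dchs1. Without Ctnna1 and Dchs1, which were chosen for their records, it had 2 of 38 (5.26%). Its genes had a median span of 95.6 kb against 17.1 kb for all coding genes. Celsr1, a cadherin of planar cell polarity, had E218Q at chr15:86033119 in KT tumour 1 on 11 of 16 reads, 68.8% (44.4% to 85.8%). Nectin1, an immunoglobulin-type adhesion molecule of adherens junctions, had D165N at chr9:43791939 in the same tumour on 16 of 23 reads, 69.6% (49.1% to 84.4%). Celsr1 had 5 records of other genes within 2 Mb at a median share of 55.6% (range 50% to 66.7%). Nectin1 had 8 at a median of 47.8% (range 32.6% to 56.7%). The interval of Celsr1 included the median of its neighbours. That of Nectin1 began above the median of its neighbours but overlapped their range, and neither was tested.

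Semaphorins are guidance ligands that bind plexins. In the semaphorin-plexin list 2 of 31 genes had a record (6.45%, against 2.49% of all coding genes). Sema6d S797G, in KT tumour 1 at chr2:124664476, was on 34 of 57 reads, 59.6% (46.7% to 71.4%), with no other gene's record within 2 Mb. Sema4a E725G, in KT tumour 5 at chr3:88436769, was on 4 of 15 reads, 26.7% (10.9% to 52.0%), among 25 records of other genes within 2 Mb at a median of 50%. None of the 4 added genes had every read with the variant, so among the 8 list genes Amot and Slit2 were the ones without reference reads. Of all 739 records, 69 had no reference read. Records above 80%, Amot and Slit2 included, were 11 of 13 on X in KT tumour 1 and 33 of 42 on chromosome 5 in KT tumour 5. On the chromosomes of Celsr1, Nectin1 and Sema6d in KT tumour 1 they were 0 of 53, 0 of 33 and 1 of 54. On that of Sema4a in KT tumour 5 they were 0 of 46. The difference is therefore not read as a trait of these genes, and it was not tested. KT tumour 1 held 4 of the 8 genes and KT tumour 5 held 2, and these tumours also had the largest numbers of records, 225 and 133.

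**Figure D4:**
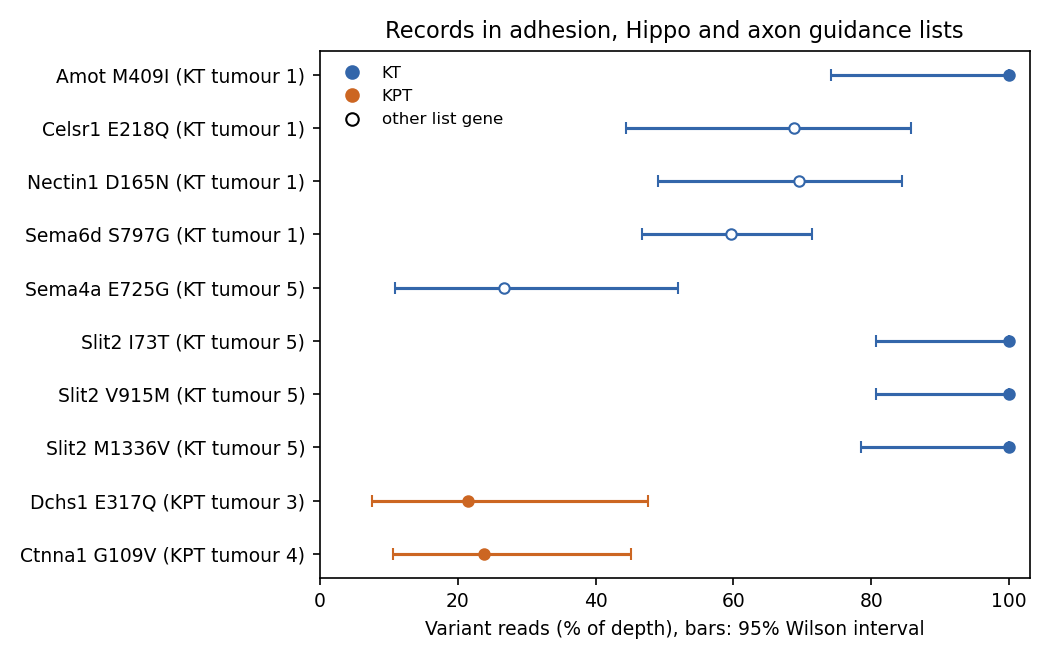
Variant reads in percent of depth (horizontal axis) with 95% Wilson intervals for each of the 10 records in the 7 gene lists, KT in blue and KPT in orange, open points for list genes other than Ctnna1, Dchs1, Amot and Slit2. The 4 records of Amot and Slit2 lie at 100%, and the other 6 run from 21.4% to 69.6%.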

How the data were processed

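DNA from 11 tumours (7 KT, 4 KPT, grouped by the labels' genotype) was made into linked-read libraries and enriched with mouse exome baits, per the labels' protocols. GATK, HISAT2 2.0.4, mm10 and GRCm38 are listed without roles, per the submitters' processing notes. Caller, filters and any normal sample are not given in the sources used here. In the 1 table used, the deposited depth is a count of reads per site, and the deposited allele fraction is a fraction printed here in percent. Positions, read pairs and marks were taken as deposited (unit other).

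Variant share was variant reads over depth, with 95% Wilson intervals. Neighbours were records of other genes of the same tumour within 2 Mb. Gene spans and 21900 coding gene symbols came from RefSeq (GRCm38.p6), to which 546 of the 558 listed genes matched. Members and lists were chosen with earlier results of these data known. Named genes were the 4 members, list genes with a record, nearest neighbours and the 3 most alike genes per member; others were named after their values were seen. Alternatives covered depth, variant reads, mappability, distance, listed fraction and leaving out tumours. The planned search of proteins and paralogs was not run, as no protein sequences were used. Tools were Python 3.11.15, pandas 2.3.3, NumPy 2.4.6, SciPy 1.17.1, Biopython 1.88 and Matplotlib 3.10.9. A neighbouring record and an engineered allele are not reported here.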

Additional observations from a re-analysis of the deposited data

How the results depend on the processing

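Where sites needed 20 reads or more, the 6 records in 4 tumours fell to 1 record in 1 tumour, Ctnna1 G109V, and list genes with a record fell from 8 to 3. Records of other genes near the 6 sites rose from 0 within 2 Mb to 7 within 5 Mb, all 7 of them beside Slit2, and stayed at 0 within 1 Mb. Leaving out each tumour in turn gave 3 to 6 records, 3 to 4 tumours and 4 to 8 list genes, with 3 records without KT tumour 5 and 4 list genes without KT tumour 1. With at least 5 variant reads Dchs1 was lost, leaving 5 records in 3 tumours, and leaving out poorly mappable records changed neither number. At all 6 sites the listed allele fraction lay within the Wilson interval of the share of reads. Both describe the same site of the same sample, and the intervals are wide at 11 to 21 reads, so this is no independent check. No paired analysis was possible because no test between genotypes was made, and the numbers in the titles are not stated to pair animals. Depth at single sites limits every share.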

Other observations

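Other adhesion and matrix genes, picked after the table had been seen, had records too. In KT tumour 5 the leukocyte integrin gene Itgad had 4 records at 44.4% to 58.3% of reads, its neighbour on chromosome 7, Itgax, had 2 at 29.0% and 42.3%, and Vcam1, an adhesion molecule of activated endothelium, had N693D at 45%. KT tumour 1 had R434W in the cadherin gene Cdh26 on 36 of 53 reads, K1727N in Dscaml1 on 20 of 40, and 4 records in the laminin chain gene Lamc3 at 30% to 42.9%. KT tumour 3 had 3 records in the junction molecule gene Jaml at 42.9% to 52.6%, and 1 each in Mpzl2 and Mpzl3. Among KPT tumours, tumour 2 had 2 records in Lamc1 at 51.0% and 54.7%, and tumour 3 had Q328H in Itgbl1 on 2 of 11 reads. Of these 21 records in 11 genes, 0 exceeded 80% of reads. Among all records, 8.89% did so in KT tumour 1, 18.5% in KT tumour 3 and 27.8% in KT tumour 5. In KPT tumours 2 and 3 it was 0% and 1.59%. Chromosomes 3 and 7 of KT tumour 5 had 0 of 46 and 0 of 23 such records. Chromosomes 2 and 9 of KT tumour 1 had 1 of 54 and 0 of 33. The 0 is therefore not read as a trait of these genes.

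The reads counted by orientation fell short of the depth in 237 of 739 records (32.1%). Slit2 I73T, with 14 of its 16 variant reads counted, and M1336V, with 13 of 14, were among them.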
